A study of Mus musculus with 4 samples.

Results

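The genes described here are those of the myostatin, activin and follistatin axis, chosen by symbol from the count table of TA (tibialis anterior) muscle RNA. Of 8 symbols (Mstn, Inhba, Fst, Fstl1, Fstl3, Acvr2a, Acvr2b and Acvr1b), 7 were matched among 13825 genes, and Mstn, the gene of myostatin, was not analysed here. The RNA came from adult male mice, either WT (purchased C57BL/6J) or Fgf21KO, which lack the growth factor gene Fgf21 in the whole body and were supplied by another laboratory. A piece of the sciatic nerve was taken out of 1 leg, and muscles were collected 14 days later. The opposite leg was left innervated, and the study's methods describe it as sham-operated. The 4 groups are named by genotype and surgery: WS and WD for sham and denervated muscle of WT mice, KS and KD for the same of Fgf21KO mice. Each group was sequenced as 1 library of poly(A) RNA pooled from 4 muscles, so differences between 2 groups could not be set against a spread between replicates. The age in weeks and the strain background of the Fgf21KO mice were not given in the sources used here, so the genotype and the colony of origin cannot be told apart. The RNA of Fgf21 was not analysed here and gave no check on the genotype labels.

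Myostatin and the activins are secreted ligands of the TGF-β family. They bind a type II receptor, ActRIIA (Acvr2a) or ActRIIB (Acvr2b), which then activates a type I receptor, ALK4 (Acvr1b) or ALK5 (Tgfbr1), and the signal reaches the nucleus through SMAD2, SMAD3 and SMAD4. Follistatin (Fst) and follistatin-like 3 (Fstl3) bind these ligands outside the cell and keep them from their receptors. In skeletal muscle the axis is known for restraining muscle mass, and loss of myostatin or excess of follistatin enlarges muscle.

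Total counts ran from 25249879 in WS to 34141303 in KS. Levels are given as counts and as CPM, the counts scaled by library total and TMM factor to a common size of 1e+06, and 3 counts equalled 0.092 to 0.129 CPM. Log2 ratios between 2 libraries, and the folds taken from them, include a prior count of 2, which damps ratios of low counts. They can therefore differ from the ratio of the CPM values given. Each carries a 95% interval that uses the counts without the prior count and covers counting error only. The labels were checked against marker genes: Ncam1, Runx1 and Gadd45a, which mark denervated fibres, summed to 39.8 CPM in WS and 37.0 in KS against 975.8 in WD and 990.5 in KD. These were the 3 of 8 listed markers in the table, and Myh1, of 6 listed fibre markers, was read at 15667 to 24263 CPM. Only genes that passed for denervation over both genotypes, at an adjusted p below 0.05 and any size of change, are called risen or fallen below. Values between 2 libraries are given as higher or lower.

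The promoters of the 3 receptor genes are shown because these genes encode the receptors of the axis and moved in different directions. Each run is the 250 bases before the start of the gene in the RefSeq table (GRCm38.p6, plus strand), with capitals at GGGCGG on either strand, the GC box, a letter pattern found in many promoters of broadly expressed genes. Acvr2b lies at chr9:119401928-119402177, Acvr2a at chr2:48813859-48814108 and Acvr1b at chr15:101173822-101174071.

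Acvr2b: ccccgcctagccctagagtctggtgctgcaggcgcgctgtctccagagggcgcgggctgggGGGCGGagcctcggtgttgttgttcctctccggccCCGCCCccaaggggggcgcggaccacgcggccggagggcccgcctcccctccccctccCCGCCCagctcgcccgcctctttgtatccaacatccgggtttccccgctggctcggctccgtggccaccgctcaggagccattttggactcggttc

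Acvr2a: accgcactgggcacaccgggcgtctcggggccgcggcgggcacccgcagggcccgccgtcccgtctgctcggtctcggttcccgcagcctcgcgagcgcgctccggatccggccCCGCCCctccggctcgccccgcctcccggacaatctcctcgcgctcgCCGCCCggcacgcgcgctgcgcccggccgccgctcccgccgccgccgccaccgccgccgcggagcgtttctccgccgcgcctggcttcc

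Acvr1b: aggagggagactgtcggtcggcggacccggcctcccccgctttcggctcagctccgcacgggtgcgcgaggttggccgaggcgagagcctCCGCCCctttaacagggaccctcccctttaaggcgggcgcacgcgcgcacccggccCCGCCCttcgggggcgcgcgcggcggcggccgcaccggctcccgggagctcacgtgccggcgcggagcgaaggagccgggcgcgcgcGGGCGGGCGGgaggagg

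The RefSeq windows of 300 bases reach 50 bases past the start, and 6 of the 7 genes had one, the missing entry being Fst. CAGCTG (an E-box), TGTGGT (a Runx motif) and TGANTCA (an AP-1 motif) were searched on both strands. They were found in none of the 6 windows, beside 16.3%, 16.8% and 7.81% of all 32851 windows, so no overlap between them arose. GGGCGG, a pattern added after the windows had been seen, lay in 35.7% of all windows, with overlapping matches counted. It occurred 4 times in the windows of Acvr1b and Fstl3, 3 times in those of Acvr2a and Acvr2b and 2 times in that of Fstl1, and it did not occur in that of Inhba. Acvr2a and Acvr2b therefore held the same number of GC boxes in the windows of 300 bases, and none of the other 3 motifs. In the 250 bases printed above, Acvr2a held 2 GC boxes and Acvr2b 3. The GC content was 80.3% for Acvr2a, 79.7% for Acvr1b, 73.3% for Acvr2b and 47.7% for Inhba, with a median of 52.7% over all windows.

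Fst was the gene of the axis with the widest range over the 4 libraries. Follistatin RNA was read at 30 counts in WS and 26 in KS, and at 592 in WD and 533 in KD, or 1.29, 0.875, 18.2 and 17.2 CPM. Both denervated libraries were therefore far above both sham libraries. With the prior count, the level was 13.4-fold higher in WD than in WS (log2 ratio 3.75, 3.29 to 4.40). It was 18.3-fold higher in KD than in KS (4.20, 3.73 to 4.93). Ranked from the highest ratio among 13084 genes, Fst was number 38 in WT and number 30 in Fgf21KO. Over both genotypes Fst rose by a log2 fold change of 4.05 (SE 0.19, adjusted p = 4.26e-13, edgeR quasi-likelihood test). In pooled muscle RNA, fewer cells of a type and less RNA per cell cannot be told apart, nor can more cells and more RNA per cell.

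Fstl1, which encodes a secreted glycoprotein with a follistatin domain that is made by fibroblasts and muscle among other cells, had 732 counts in WS against 774 in WD and 1081 in KS against 658 in KD, or 31.5, 23.7, 36.4 and 21.3 CPM. On the CPM scale both denervated libraries were below both sham libraries. The log2 ratio was -0.41 (-0.55 to -0.26) in WT and -0.77 (-0.92 to -0.63) in Fgf21KO, and over both genotypes Fstl1 fell by 0.59 on the log2 scale (SE 0.10, adjusted p = 6.38e-05, edgeR quasi-likelihood test). With total counts as the only scaling that value was -0.27 (adjusted p = 0.0413), and its range over 5 alternatives was -0.60 to -0.27 with adjusted p from 1.04e-08 to 0.0413. The 7 markers of fibro-adipogenic progenitors and fibroblasts (Pdgfra, Ly6a, Cd34, Col1a1, Col3a1, Lum and Dpt, all in the table) summed to 560.4 CPM in WS and 498.7 in KS, and to 328.8 in WD and 346.8 in KD. Col1a1 and Col3a1 were the largest parts of these sums (174.2 and 226.5 CPM in WS). Single markers had log2 ratios from -1.20 (Col1a1) to -0.32 (Dpt) in WT and from -0.96 (Dpt) to 0.15 (Lum) in Fgf21KO. The study itself sorted more fibro-adipogenic progenitors from denervated than from sham muscles. That was a number of cells from all hindlimb muscles, while the sums here are relative RNA levels in TA muscle. The part of these cells in the fall of Fstl1 was not tested.

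Fstl3, the third follistatin-family gene, was read at 26 counts in WS against 59 in WD and 36 in KS against 36 in KD, or 1.12, 1.81, 1.21 and 1.16 CPM. The library that stood out was WD, with a log2 ratio to WS of 0.66 (0.01 to 1.42), while KD differed from KS by -0.05 (-0.77 to 0.65). Over both genotypes its log2 fold change of 0.32 (SE 0.35) did not pass (adjusted p = 0.461, edgeR quasi-likelihood test). In GENCODE M21, 1157 of its exon bases are shared with Prss57 on the opposite strand, and 115 of those of Fst with the antisense gene Gm47040. The library kit keeps strand, but whether the counting used it is not given in the sources used here.

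**Figure D1:**
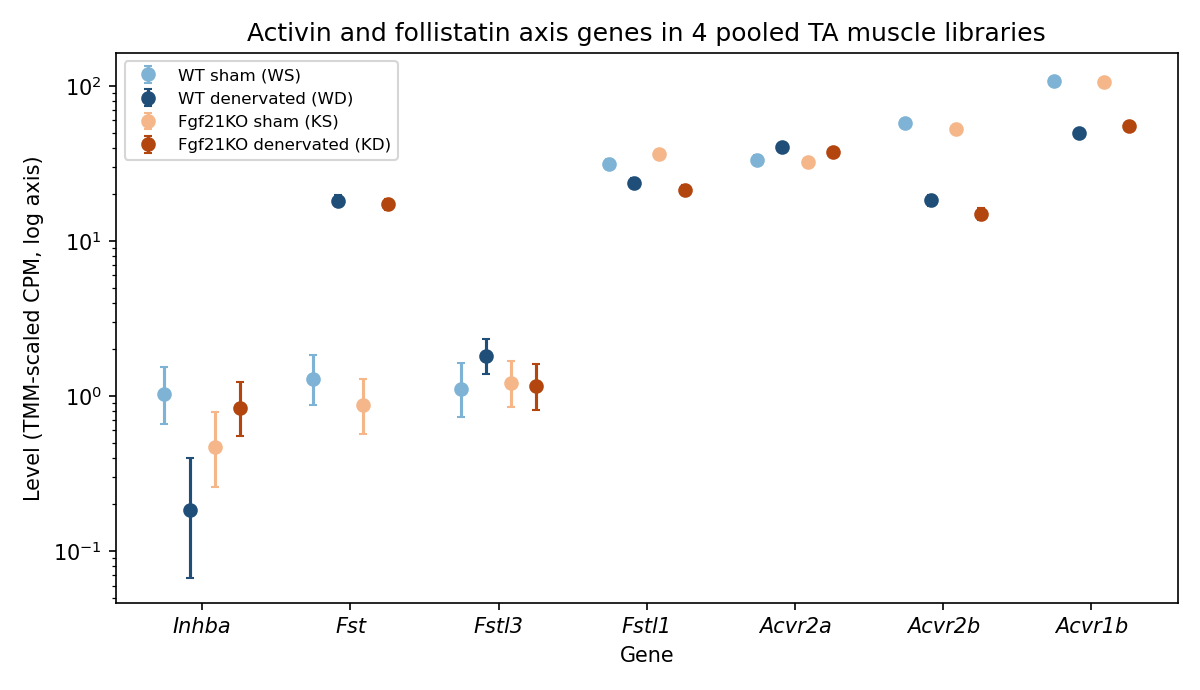
Levels of the 7 genes (TMM-scaled CPM, log axis) in the 4 pooled libraries, WS and WD in blue and KS and KD in orange; bars are 95% counting intervals of 1 library each. The Fst points of WD and KD (18.2 and 17.2 CPM) lie far above those of WS and KS (1.29 and 0.875 CPM), while Acvr2b and Acvr1b lie lower in both denervated libraries.

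The follistatin family thus had another make-up in denervated muscle. Per kilobase of exon, Fst, Fstl1 and Fstl3 together gave 7.14 CPM in WS against 9.53 in WD and 8.09 in KS against 8.56 in KD. Of that sum Fst held 3.94% in WS and 2.36% in KS, but 41.5% in WD and 43.9% in KD. Fstl1 held 89.7% and 91.5% in the sham libraries and 50.7% and 50.6% in the denervated ones. The ratio of Fst to Fstl1 counts, which does not depend on the scaling, was 0.041 in WS against 0.765 in WD and 0.0241 in KS against 0.810 in KD. It was 18.7-fold (12.8 to 27.3) higher in WD than in WS and 33.7-fold (22.5 to 50.5) higher in KD than in KS.

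Inhba, which encodes the subunit of activin A, was read at a low level in these muscles. It had 24 counts in WS against 6 in WD and 14 in KS against 26 in KD, or 1.03, 0.184, 0.471 and 0.841 CPM. WD was thus the lowest library, and KD lay between both sham libraries. The log2 ratio was -2.12 (-4.07 to -1.16) between WD and WS and 0.75 (-0.15 to 1.89) between KD and KS, opposite in sign. KS was below WS at -1.03 (-2.19 to -0.12), and KD was above WD at 1.85 (0.88 to 3.76). Over all 4 libraries neither denervation (log2 fold change -0.58, SE 0.57, adjusted p = 0.417) nor genotype (0.32, SE 0.57, adjusted p = 0.951) passed by the edgeR quasi-likelihood test. On the deposited log2 values, which damp low counts more strongly, the WD to WS ratio was -0.78 and the KD to WD ratio 0.63.

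Inhbb, the gene of the activin B subunit, is the other ligand gene of the pathway in the table. It had 23 counts in WS against 75 in WD and 17 in KS against 87 in KD, so both denervated libraries were above both sham libraries. It rose by a log2 fold change of 1.74 (SE 0.35, adjusted p = 3.36e-04, edgeR quasi-likelihood test), with a log2 ratio of 1.16 (0.53 to 1.96) in WT and 2.17 (1.54 to 3.14) in Fgf21KO. For each Inhba count there were 0.958 Inhbb counts in WS and 1.21 in KS. In WD there were 12.5 and in KD 3.35, a change of 13.0-fold (4.75 to 35.8) in WT and 2.76-fold (1.20 to 6.33) in Fgf21KO. Gdf11, whose ligand is closely related to myostatin, was not analysed here.

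The activin type II receptor genes moved in opposite directions. Acvr2b, the gene of ActRIIB, had 1341 counts in WS against 596 in WD and 1577 in KS against 460 in KD, or 57.6, 18.3, 53.1 and 14.9 CPM. Both denervated libraries were below both sham libraries, 3.15-fold in WT (log2 ratio -1.65, -1.80 to -1.52) and 3.56-fold in Fgf21KO (-1.83, -1.99 to -1.68). Over both genotypes Acvr2b fell by 1.74 on the log2 scale (SE 0.092, adjusted p = 3.13e-12, edgeR quasi-likelihood test). Acvr2b also had the lowest genotype p of the 7 genes, with a log2 fold change of -0.20 (unadjusted p = 0.0434, adjusted p = 0.632, edgeR quasi-likelihood test).

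Acvr2a, the gene of ActRIIA, had 778 counts in WS against 1306 in WD and 957 in KS against 1151 in KD, or 33.4, 40.0, 32.2 and 37.2 CPM. Here the denervated libraries were slightly above the sham ones, with log2 ratios of 0.26 (0.13 to 0.39) in WT and 0.21 (0.08 to 0.33) in Fgf21KO. Acvr2a rose by a log2 fold change of 0.23 (SE 0.087, adjusted p = 0.0286, edgeR quasi-likelihood test). The call was lost by DESeq2's Wald test (0.22, adjusted p = 0.216), and over 5 alternatives the adjusted p ran from 0.000206 to 0.216. Acvr2a shares 446 exon bases with Orc4, a gene of the origin recognition complex on the opposite strand, which had 412 counts in WS against 712 in WD and 624 in KS against 682 in KD. The part of Orc4 reads in the Acvr2a counts was not tested.

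Acvr2b was the more abundant of the pair in sham muscle and Acvr2a in denervated muscle. In WS there were 0.580 Acvr2a counts for each Acvr2b count (0.530 to 0.634), and in KS 0.607 (0.559 to 0.658). In WD there were 2.19 (1.99 to 2.42) and in KD 2.50 (2.24 to 2.79). The ratio was 3.78-fold (3.31 to 4.31) higher after denervation in WT and 4.12-fold (3.60 to 4.72) in Fgf21KO, whatever the scaling of the libraries. Per kilobase of exon, Acvr2b gave 71.4% of the sum of both in WS and 70.5% in KS, and 39.8% in WD and 36.6% in KD. The sum itself was 20.6 and 19.2 CPM per kilobase in WS and KS and 11.7 and 10.3 in WD and KD. Bmpr2, a type II receptor gene for BMPs that can also serve activins, fell by 0.51 on the log2 scale (adjusted p = 5.88e-06, edgeR quasi-likelihood test), with log2 ratios of -0.44 (-0.52 to -0.37) in WT and -0.58 (-0.65 to -0.51) in Fgf21KO.

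Acvr1b, the gene of the type I receptor ALK4, had the highest level of the axis per kilobase in every library. It had 2515 counts in WS against 1620 in WD and 3142 in KS against 1709 in KD, or 108.1, 49.7, 105.8 and 55.3 CPM. Both denervated libraries were below both sham libraries. The level was 2.17-fold lower in WD than in WS (log2 ratio -1.12, -1.21 to -1.03) and 1.91-fold lower in KD than in KS (-0.94, -1.02 to -0.85). Acvr1b fell by 1.03 on the log2 scale over both genotypes (SE 0.077, adjusted p = 7.52e-10, edgeR quasi-likelihood test). With total counts as the only scaling it fell by 0.71, under the 2-fold mark, and its log2 ratio in Fgf21KO was -0.58.

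Tgfbr1, the gene of ALK5, which serves TGF-β and also myostatin, moved the other way. It had 703 counts in WS against 3196 in WD and 980 in KS against 3359 in KD, and it rose by a log2 fold change of 1.71 (SE 0.079, adjusted p = 3.35e-13, edgeR quasi-likelihood test). The ratio of Tgfbr1 to Acvr1b counts was 0.280 in WS against 1.97 in WD and 0.312 in KS against 1.97 in KD, a 7.06-fold (6.37 to 7.82) change in WT and a 6.30-fold (5.75 to 6.91) change in Fgf21KO. Per kilobase, their sum was 29.1, 26.2, 29.0 and 29.1 CPM in WS, WD, KS and KD, while the share of Acvr1b was 84.1%, 42.8%, 82.6% and 42.9%. Acvr1, the gene of the type I receptor ALK2, fell by 0.87 on the log2 scale (adjusted p = 3.50e-06, edgeR quasi-likelihood test).

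**Figure D2:**
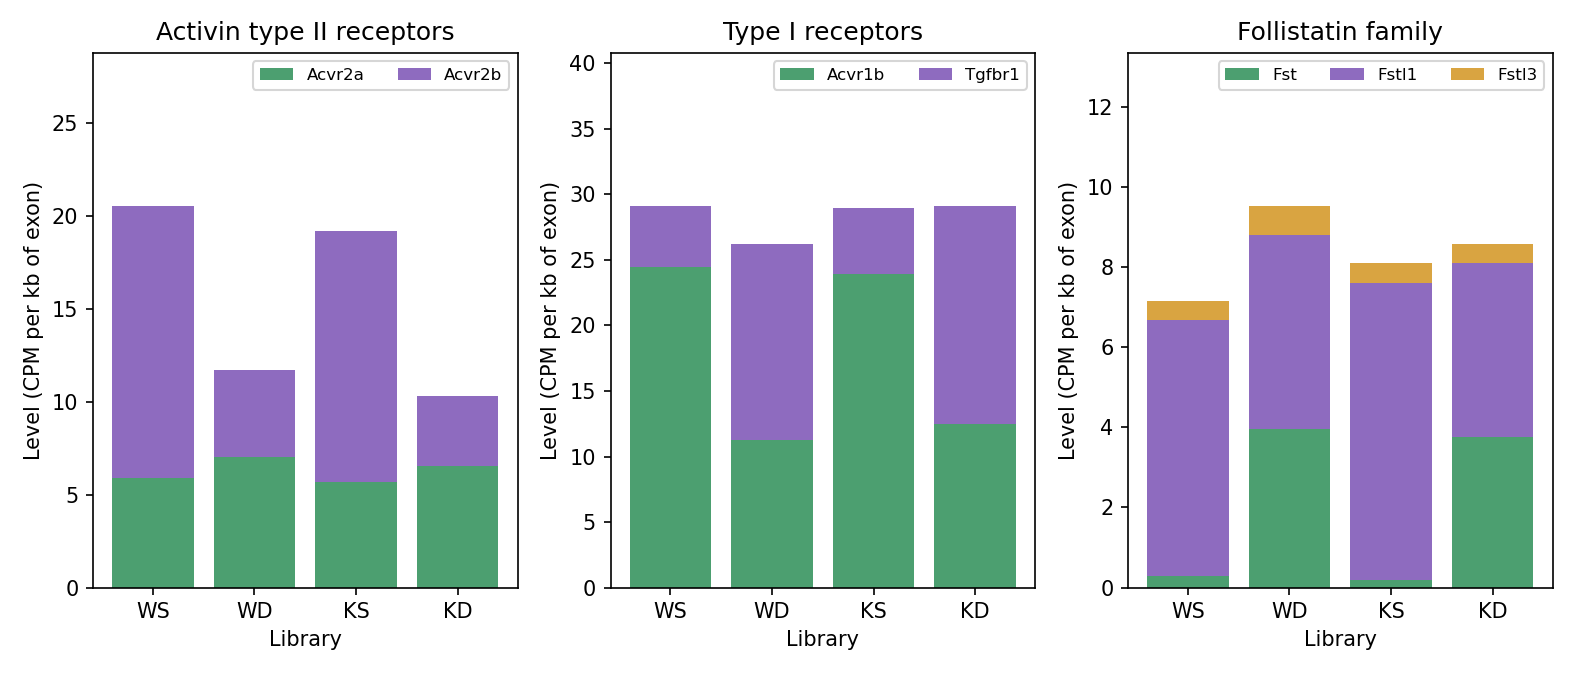
Stacked levels (CPM per kilobase of exon) of the type II receptor genes, the type I receptor genes and the follistatin family in WS, WD, KS and KD, 1 pooled library per bar. Acvr2b makes up 71.4% of its pair in WS and 39.8% in WD, Acvr1b 84.1% and 42.8%, and Fst 3.94% and 41.5% of the follistatin family.

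The order of the 7 genes, on the scale of CPM per kilobase of exon, also differed between sham and denervated libraries. In WS it was Acvr1b (24.5), Acvr2b (14.7), Fstl1 (6.40), Acvr2a (5.88), Fstl3 (0.457), Fst (0.281) and Inhba (0.161). Fstl1 and Acvr2a had overlapping counting intervals there, as had Fstl3 and Fst, and Fst and Inhba. In WD it was Acvr1b (11.2), Acvr2a (7.04), Fstl1 (4.83), Acvr2b (4.65), Fst (3.96), Fstl3 (0.740) and Inhba (0.0288). The intervals of Fstl1 and Acvr2b, and those of Acvr2b and Fst, overlapped in WD. KS followed the order of WS, and its neighbours had no overlapping intervals. KD followed the order of WD, with Fstl1 (4.33), Acvr2b (3.79) and Fst (3.76) overlapping from one to the next. These counting intervals leave out any spread between mice.

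Counted by size, 4 of the 7 genes differed at least 2-fold between WD and WS, Fst being higher and Acvr2b, Acvr1b and Inhba lower, where 14.8% of all 13084 genes did so (7.25% higher and 7.52% lower). Between KD and KS 2 genes did, Fst higher and Acvr2b lower, beside 13.6% of all genes (7.52% higher and 6.07% lower). The median log2 ratio of the 7 genes was -0.41 in WT and -0.05 in Fgf21KO, and that of all genes 0.01 in both. Without regard to sign the medians were 1.12 and 0.77, against 0.40 and 0.39 over all genes. In the model of denervation over both genotypes, 3 of 7 passed with a 2-fold change (1 up and 2 down, beside 13.0% of all genes, 6.8% up and 6.15% down). At an adjusted p below 0.05 of any size 5 of 7 passed (2 up and 3 down), beside 52.9% of all genes (26.4% up and 26.6% down). Inhba and Fstl3, the genes with the lowest counts, were those that did not pass.

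**Figure D3:**
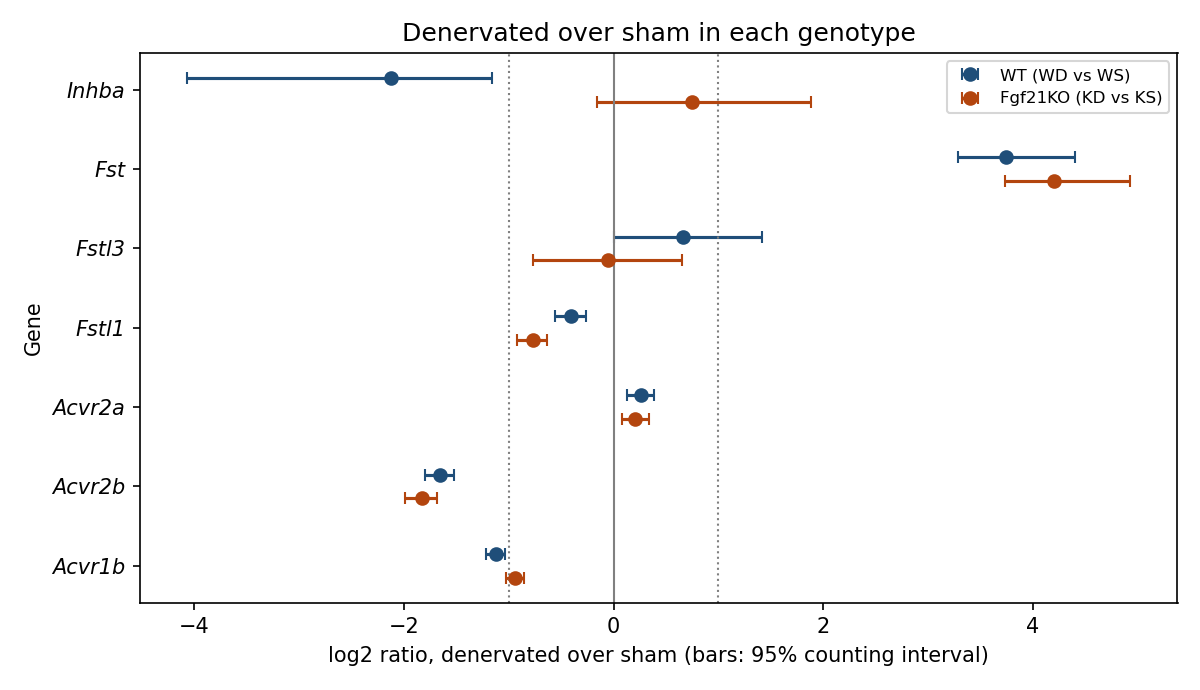
Log2 ratio of the denervated over the sham library for each gene, in WT (blue, WD vs WS) and Fgf21KO (orange, KD vs KS), with 95% counting intervals and dotted lines at 2-fold. Fst lies at 3.75 and 4.20 and Acvr2b at -1.65 and -1.83, and the Inhba points lie on either side of 0 at -2.12 and 0.75.

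The comparison of genotypes asks whether loss of Fgf21 alters these genes in innervated or denervated muscle. Between KS and WS 1 of the 7 genes was at least 2-fold apart (Inhba, lower), where 2.04% of all genes were and 1.15% were lower. Between KD and WD it was again 1 (Inhba, higher), beside 1.56% of all genes and 0.841% that were higher. For Fst the log2 ratio was -0.52 (-1.37 to 0.25) between KS and WS and -0.07 (-0.25 to 0.10) between KD and WD. For Acvr2b it was -0.12 (-0.22 to -0.01) and -0.30 (-0.48 to -0.12), for Acvr1b -0.03 (-0.11 to 0.04) and 0.15 (0.06 to 0.25), and for Acvr2a -0.05 (-0.19 to 0.08) and -0.11 (-0.22 to 0.01). The intervals of Fst and Acvr2a included 0 in both comparisons, and those of Acvr2b lay below it. Fstl1 was at 0.21 (0.07 to 0.35) and -0.16 (-0.31 to -0.01), and Fstl3 at 0.11 (-0.65 to 0.90) and -0.61 (-1.28 to -0.01). In the model over all 4 libraries, 0 of the 7 genes passed for genotype by the edgeR quasi-likelihood test, where 0.168% of all genes did with a 2-fold change and 0.573% at any size. At an unadjusted p below 0.05 1 of the 7 did (Acvr2b), beside 998 of all 13084 genes, and DESeq2's Wald test also called 0.

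The response to denervation in Fgf21KO minus that in WT, on the log2 scale, was 0.45 (-0.29 to 1.26) for Fst, -0.18 (-0.38 to 0.03) for Acvr2b and -0.05 (-0.23 to 0.13) for Acvr2a, so for these the counting intervals included 0. It was 0.19 (0.06 to 0.31) for Acvr1b, -0.37 (-0.57 to -0.17) for Fstl1, -0.72 (-1.69 to 0.19) for Fstl3 and 2.87 (1.73 to 4.92) for Inhba. Responses at least 1 apart were found for 538 of the 13084 genes (4.11%), and for 1 of the 7. With 1 library per group, the difference between responses could not be tested. Both comparisons of denervated with sham muscle, and both of the genotypes, use the same 4 libraries.

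Of the other 35 genes listed for the pathway, 24 were in the table, and the others were not analysed here. For denervation 22 of the 24 passed at an adjusted p below 0.05 (9 up and 13 down), 7 of them with a 2-fold change, by the edgeR quasi-likelihood test, beside 52.9% and 13.0% of all genes. With total counts as the only scaling, which puts the median gene at 0.29 for WT and 0.36 for Fgf21KO, 18 passed (10 up and 8 down). The share of all genes that passed at any size under that scaling is not given here. At least 2-fold apart were 7 of 24 between WD and WS and 7 of 24 between KD and KS, and 0 of 24 in either comparison of genotypes, where 14.8%, 13.6%, 2.04% (KS vs WS) and 1.56% (KD vs WD) of all genes were. The median log2 ratio of the 24 was -0.37 in WT and -0.35 in Fgf21KO, against 0.01 over all genes in both. For genotype 0 of the 24 passed by the edgeR quasi-likelihood test, beside 0.573% of all genes at any size, and 0 by DESeq2's Wald test. At an unadjusted p below 0.05 by the edgeR quasi-likelihood test there were 4 of the 24, beside 998 of all 13084 genes.

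Among the genes of binding proteins and co-receptors, Ltbp3, which encodes a latent TGF-β binding protein, rose from 1818 counts in WS to 5158 in WD and from 1962 in KS to 4543 in KD (log2 fold change 1.09, adjusted p = 1.76e-10, edgeR quasi-likelihood test). Its relative Ltbp4 fell from 2905 to 1447 and from 2890 to 1369 counts (-1.31, adjusted p = 8.54e-11). Tgfbr3, the gene of the co-receptor betaglycan, rose as well (log2 ratio 0.95 in WT and 1.05 in Fgf21KO, adjusted p = 6.12e-09), with 565 counts in WS against 1528 in WD and 794 in KS against 1717 in KD. Bambi, which encodes a decoy receptor without a kinase, fell by 1.02 on the log2 scale (adjusted p = 0.00704), with 65, 39, 77 and 45 counts in the same order. Its call did not hold with total counts as the only scaling (-0.70, adjusted p = 0.0633) or by DESeq2's Wald test (-1.04, adjusted p = 0.0967). Dcn, the gene of the ligand-binding proteoglycan decorin, had a log2 fold change of -0.33 (adjusted p = 0.00307) and of -0.01 with total counts only (adjusted p = 0.921).

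Of the proteases that mature the ligands, Bmp1, which frees myostatin from its propeptide, fell by 0.64 on the log2 scale (adjusted p = 1.88e-04, edgeR quasi-likelihood test) and Pcsk6 fell by 0.83 (adjusted p = 0.00145). Furin, the main convertase of these proproteins, did not pass (0.15, adjusted p = 0.145). With total counts as the only scaling Furin did pass, as a rise (0.47, adjusted p = 0.00083, edgeR quasi-likelihood test). Bmp1 and Pcsk6 were then at -0.32 (adjusted p = 0.0499) and -0.51 (adjusted p = 0.0451). Pcsk5 had 49 counts in WS against 28 in WD and 38 in KS against 38 in KD, and its log2 fold change of -0.67 did not pass (adjusted p = 0.133).

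Inside the cell, Tgif1, the gene of a SMAD co-repressor, was the most altered of the other pathway genes. It had 73 counts in WS against 658 in WD and 83 in KS against 708 in KD and rose by a log2 fold change of 2.87 (SE 0.15, adjusted p = 2.68e-12, edgeR quasi-likelihood test). Smad2 rose by 0.36 (adjusted p = 0.00632, and 0.0947 by DESeq2's Wald test) and Smad3, the other receptor-activated SMAD of the axis, by 0.35 (adjusted p = 3.21e-04). Smad4, the partner of both, fell by 0.57 on the log2 scale (adjusted p = 2.56e-06). Smad7, an inhibitor of the receptors that the pathway itself induces, fell by 0.61 (adjusted p = 0.00634), a call lost with total counts only (-0.29, adjusted p = 0.203) and by DESeq2's Wald test (adjusted p = 0.0771). Of the repressors that bind SMADs, Ski fell by 0.80 (adjusted p = 1.11e-07) while Skil rose by 0.46 (adjusted p = 5.24e-04). Zfyve9, whose protein presents SMAD2 to the receptor, fell by 0.82 (adjusted p = 1.19e-08). The ubiquitin ligase genes Smurf1 and Smurf2 had log2 fold changes of -0.41 (adjusted p = 0.0021) and -0.33 (adjusted p = 0.00369), which were -0.09 and -0.01 with total counts only and did not pass there. Pmepa1, a target gene that limits the pathway, rose by 0.32 (adjusted p = 0.0225, and 0.196 by DESeq2's Wald test).

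**Figure D4:**
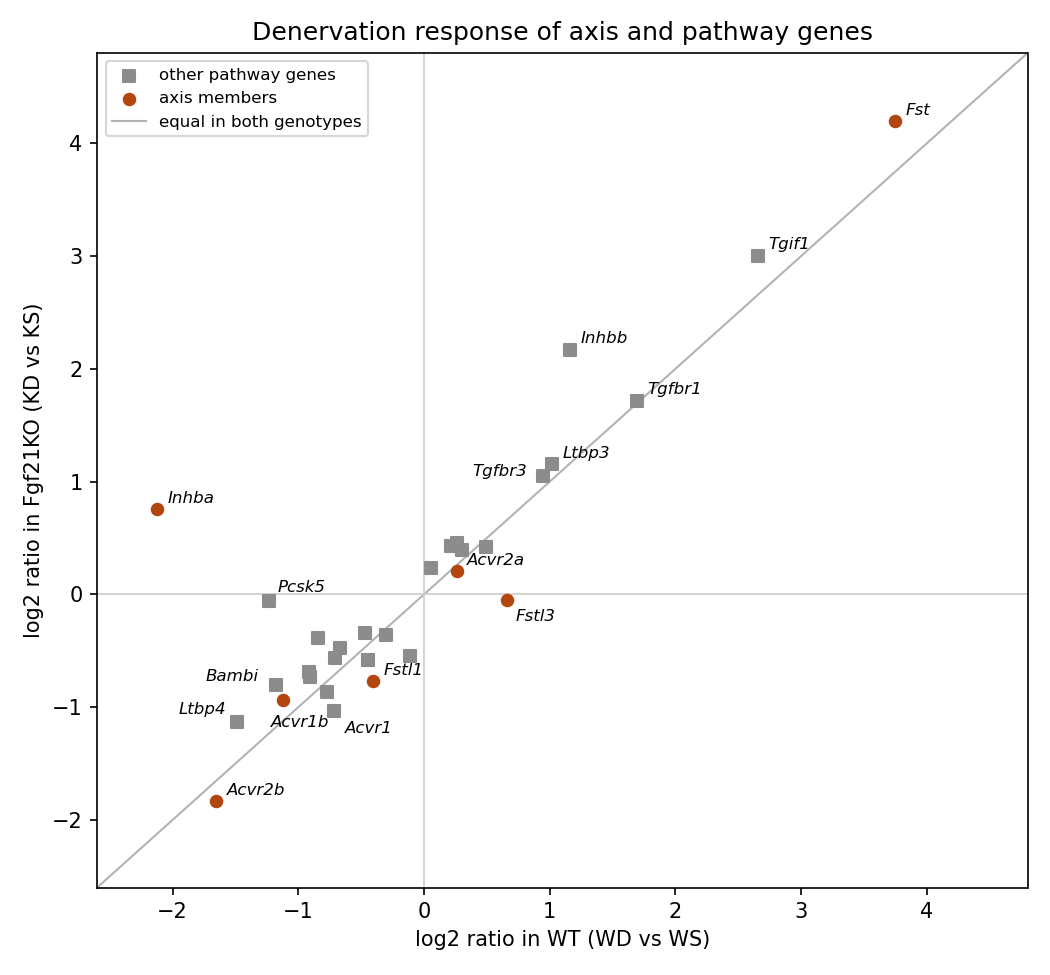
Log2 ratio of denervated over sham in Fgf21KO (y axis, KD vs KS) against that in WT (x axis, WD vs WS) for the 7 axis genes (circles) and 24 other pathway genes (squares), with a line where both are equal. Fst (3.75 and 4.20) and Tgif1 (2.66 in WT) lie at the upper right and Acvr2b (-1.65 and -1.83) at the lower left, while Inhba (-2.12 and 0.75) lies far from the line.

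Markers of macrophages, endothelial cells and tendon also differed between sham and denervated libraries. The 5 macrophage markers, all in the table, summed to 12.5 CPM in WS against 35.3 in WD and 12.2 in KS against 33.5 in KD, and the 4 endothelial ones to 396.5, 179.2, 318.6 and 173.2 CPM. Of tendon markers 1 of 4 (Fmod) was in the table, at 29.9 CPM in WD and 34.5 in KD against 58.8 in WS and 66.5 in KS. Of satellite cell markers 1 of 4 (Vcam1) was in it. Vcam1 had 4.21 CPM in WS against 3.83 in WD and 5.52 in KS against 4.27 in KD. No marker in the table was at 0, since each gene in it has at least 1 read per library. The part of these cells in the levels of Fst, Acvr2b, Acvr1b and Tgfbr1 was not tested.

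The genes whose pattern over the 4 libraries was most like that of Fst and Acvr2b, the members with the widest ranges among those averaging 50 counts or more (4.27 and 1.95 log2 units), were found by the distance between centred log2 CPM profiles among 11311 genes. Nearest to Fst were Plekhh2 (distance 0.097), Dusp4 (0.204), which encodes a phosphatase of MAP kinases, and Nabp1 (0.205), which encodes a single-stranded DNA binding protein. Plekhh2 had 71 counts in WS against 1301 in WD and 57 in KS against 1210 in KD. Nearest to Acvr2b were Eml1 (0.043), which encodes a microtubule-binding protein, Fgf2 (0.106), a growth factor gene, and Fam78a (0.114). Fgf2 had 305 counts in WS against 125 in WD and 367 in KS against 99 in KD. With 4 libraries, of which the sham and denervated ones differ most, such likeness describes these profiles only.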

How the data were processed

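RNA of TA muscle was prepared with a stranded poly(A) kit from 4 muscles pooled per group, and 1 library was sequenced for each of WS, WD, KS and KD. The authors deposited raw counts for each gene and a further table of log2 values, which were found here to be log2(count x library factor + 1). GRCm39 and FastQC are named in the submitters' processing notes, while the aligner, the counter and its strand setting are not given in the sources used here. GENCODE M21 (GRCm38) served for exon lengths and overlaps, and RefSeq (GRCm38.p6) for promoters.

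Software was edgeR 4.0.16 and DESeq2 1.42.0 under R 4.3.3, with scipy 1.17.1 under Python 3.11.15. Genes averaging 10 counts or more across libraries (13084) were kept, with TMM scaling (factors 0.922 and 1.119 in WS and WD, 0.870 and 1.115 in KS and KD) and a prior count of 2. Library pairs were set against each other by the size of the log2 ratio (at least 1) with exact conditional binomial (Clopper-Pearson) counting intervals at 95%. The log2 ratios include the prior count and the intervals do not. Effects of denervation and genotype over the 4 libraries were tested in an additive model by the quasi-likelihood method of edgeR, with Benjamini-Hochberg adjustment over all 13084 genes. Its 1 residual degree of freedom is the interaction itself, so p-values take the interaction to be small and no test of it was possible. The threshold was the study's own, an adjusted p below 0.05 with a log2 fold change of at least 1 in size, and calls of any size are given beside it. The model's common biological coefficient of variation was 0.0682. It takes the pools as its replicates, so p-values do not cover the spread between mice, and the legs of a pair may come from the same mice. SE is the log2 fold change over the square root of the F statistic. Intervals on a difference of 2 log2 ratios or a change of a count ratio use a normal approximation and cover counting error only. Those on a difference of 2 log2 ratios are centred on the value without the prior count. The printed difference includes it and is therefore not their midpoint.

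Named were the 7 members, the Smad genes and Tgfbr1, the pathway genes that differed 2-fold or passed with a 2-fold change, and for the 2 members of widest range the 3 genes of nearest profile (both averaging 50 counts or more). Furin and the pathway genes below 2-fold were named after their values were seen. The members and lists were chosen with earlier results of these data known. Alternatives tried were scaling by DESeq2's size factors or by total counts only, a filter at a mean of 50 or none, a prior count of 0.125 or 5, use of the deposited log2 values, an exact test at an assumed variation of 0.1 or 0.4, DESeq2's Wald test and no fold threshold. Scripts were tested on simulated data. The result of 1 list of cell type markers is not reported here.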

Additional observations from a re-analysis of the deposited data

Results flagged for a closer look

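The responses of 2 genes to denervation had opposite signs in WT and Fgf21KO. For Inhba the log2 ratio of denervated over sham was -2.12 in WT and 0.75 in Fgf21KO, a difference of 2.87 (counting interval 1.73 to 4.92), from 24, 6, 14 and 26 counts in WS, WD, KS and KD. For Fstl3 it was 0.66 in WT and -0.05 in Fgf21KO, a difference of -0.72 (-1.69 to 0.19), from 26, 59, 36 and 36 counts. These differences were not tested, since each group is 1 pooled library. Over all 13084 genes, 2232 (17.1%) had opposite signs in the 2 genotypes. With total counts as the only scaling the Fstl3 ratio in Fgf21KO was 0.28, and its signs were then alike.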

How the results depend on the processing

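No paired analysis was possible because a group holds 1 library, so none could be left out either, and DESeq2 was not run between pairs. The directions of Fst, Acvr2b, Acvr2a, Acvr1b and Fstl1 between denervated and sham libraries were the same under the 7 alternatives that give a log2 ratio. By the exact test at an assumed variation of 0.4, members at least 2-fold apart numbered 1 (WD vs WS) and 1 (KD vs KS) instead of 4 and 2, and pathway genes 0 and 0 instead of 7 and 7. The Inhba call was lost (0 members) in KS vs WS and KD vs WD by the exact test at 0.1 and at 0.4. It was lost there on the deposited log2 values too, and in KS vs WS also at a prior count of 5. A mean count of at least 50 removed Inhba before any comparison, which again left 0 members in both. That filter and the deposited log2 values each left 3 members 2-fold apart in WD vs WS, where 1496 and 1188 genes were in the same order. With total counts only, Inhba stood at 1.07 in KD vs KS, and 3 members were 2-fold apart there. So were 2290 of all 13084 genes, against 1778 in the main setting. On the deposited log2 values 3 pathway genes were 2-fold apart in WD vs WS, and Fst stood at 3.05 (WD vs WS) and 3.26 (KD vs KS). Without the fold threshold 5 members and 22 pathway genes passed for denervation. Total counts only moved the median gene to 0.29 (WT) and 0.36 (Fgf21KO), with Acvr2b at -1.37 and -1.47, Acvr1b at -0.84 and -0.58, Fstl1 at -0.13 and -0.42 and Acvr2a at 0.54 and 0.56. The genotype value of Fstl1 turned from 0.03 to -0.015 under total counts (adjusted p = 0.99, edgeR quasi-likelihood test), and the cause was not tested. Over all genes (main counts 1933 for WD vs WS, 1778 for KD vs KS), the exact test at 0.4 called 63 and 81 and the deposited log2 values 1188 and 1117. Depth limits Inhba and Fstl3 most, with 6 to 59 counts per library.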
